A study of Arabidopsis thaliana with 71 samples.

Results

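The 92 genes described here had more RNA after the adaxial leaf factor REVOLUTA (REV) was activated and less after the abaxial factor KANADI1 (KAN1) was activated, in whole Arabidopsis thaliana seedlings. They were chosen by their measured values. For each gene the mean log2(FPKM + 0.5) over the 60 and 120 min libraries of a line, minus the mean at 0 min, was called d. A gene was kept with d of at least 0.5 in GR-REV and at most -0.5 in GR-KAN1, if its highest group mean was at least 5 FPKM (fragment counts relative to transcript length and sequencing depth). Of 22332 genes in the table, 12809 nuclear genes reached that level and 101 of them met both thresholds. REV, KAN1, TAA1, RTFL12 and the HD-ZIP II, PYL abscisic acid receptor, OFP and Aux/IAA families were set aside, which removed 9 of the 101 (TAA1, OFP16, PYL4, PYL6, IAA19, IAA2, IAA1, HAT22 and HAT2).

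The series followed 5 Columbia lines, each grown for 7 days in liquid medium and given 50 µM dexamethasone. GR-REV, GR-KAN1 (also labelled KANADI1-GR), GR-STM and GR-AS2 each carried a transcription factor fused to the glucocorticoid receptor, which holds the fusion protein outside the nucleus until dexamethasone is added, and Columbia wild type (WT) carried none. All lines, WT included, received dexamethasone, and no solvent control was analysed here. Seedlings were frozen at 0, 30, 60 and 120 min, giving 71 libraries: 3 for each GR line and time, 2 for GR-REV at 30 min, and 6 for WT at each time. The sources used here do not give the promoter driving each fusion or the number of independent insertions.

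REV is a homeodomain-leucine zipper protein of class III (HD-ZIP III) and acts on the upper, adaxial side of leaf primordia, in the vasculature and in the shoot meristem. KAN1 is a GARP-family protein that mostly represses transcription, and acts on the lower, abaxial side. The pair are known as opposing factors of leaf polarity, with shared target genes in auxin synthesis, auxin signalling and shade growth. REV stood at 72.8 ± 9.90 FPKM (SD, n = 2) in GR-REV at 30 min, against 3.29 ± 0.789 FPKM (n = 3) in GR-KAN1. KAN1 (listed as KAN) stood at 147.1 ± 42.5 FPKM in GR-KAN1 at 30 min (n = 3), against 2.86 ± 0.676 FPKM (n = 2) in GR-REV.

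Among the 12809 genes, d was at least 0.5 in GR-REV for 1025 and at most -0.5 in GR-KAN1 for 639. The opposite pattern, down with REV and up with KAN1, was found for 131 genes, while 292 met the upper threshold in both lines and 118 the lower one in both. The members' median d was 0.90 in GR-REV (0.50 to 3.76) and -0.78 in GR-KAN1 (-11.28 to -0.50), as the rule required. Just inside the GR-REV threshold lay PUP7 at 0.504, TDT at 0.508 and AT2G04795 at 0.538, and just outside it XTH33 at 0.495, SUC1 at 0.494 and AT5G51670 at 0.493. Just inside the GR-KAN1 threshold lay UMAMIT33 at -0.501, EXO70H7 at -0.505 and SAUR15 at -0.505, and just outside it SAG21 at -0.4997, the brassinosteroid synthesis gene CPD at -0.493 and the cyclin gene CYCD3;1 at -0.488. Closest to the level threshold were SAUR9, AT3G28420 and AT2G29300 inside, with highest group means of 5.19 to 5.23 FPKM, and AT4G25780, SAUR19 and AT2G18010 outside, with 4.55, 4.41 and 4.07 FPKM.

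By annotated product the 92 members were 13 transcription regulators, 7 SAUR genes, 5 cell wall genes, 12 kinases, receptors or other signalling genes, 7 transporters, 12 enzymes and 36 genes of other or unknown product. A library value at or near 0 (under 0.05 FPKM) occurred in the 18 libraries used by the rule for 16 members, all in the group of other or unknown product. These 16 included 8 of the 12 members with the largest difference in d (CAB1, AT3G51642, AT2G24945, AT3G12835, AT4G37095, AT2G20721, AT5G24879 and AT5G62998). CAB1, a chlorophyll-binding protein of the photosystem II antenna with near-identical neighbours, was listed at 0 in 4 of the 6 GR-KAN1 libraries of 60 and 120 min and at 83741 and 19266 FPKM in the other 2, which gave its d of -11.28. The small nucleolar RNA gene AT2G20721 was at or near 0 in 60 of 71 libraries and reached 538291 FPKM in another. AT5G62998 and AT3G30778 were at or near 0 in 69 of 71 libraries. The 76 members without such values are the ones described one by one below, except where stated.

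The start regions of 4 members are shown here: AT5G61590 had the smallest adjusted p between GR-REV and GR-KAN1 at 30 min, and AT2G38180, ZFP8 and AT4G38840 were called against WT at 30 min in both lines, in opposite directions, though each of these 3 lost a call against WT when single libraries were left out. Each is the 250 bases before the annotated gene start, 5′ to 3′ on the gene's strand, from RefSeq's TAIR10.1, and none overlaps another annotated gene. Capitals mark AATNATT, the core of homeodomain-leucine zipper sites, and GNATAA or GNATAT, forms bound by KANADI proteins, on either strand.
AT5G61590 (chr5:24765512-24765761, minus strand): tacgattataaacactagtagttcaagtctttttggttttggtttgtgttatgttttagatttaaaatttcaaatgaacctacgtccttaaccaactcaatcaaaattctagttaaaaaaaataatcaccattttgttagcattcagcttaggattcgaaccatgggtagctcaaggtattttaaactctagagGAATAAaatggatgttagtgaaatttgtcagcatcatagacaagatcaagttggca
AT2G38180 (chr2:15996684-15996933, plus strand): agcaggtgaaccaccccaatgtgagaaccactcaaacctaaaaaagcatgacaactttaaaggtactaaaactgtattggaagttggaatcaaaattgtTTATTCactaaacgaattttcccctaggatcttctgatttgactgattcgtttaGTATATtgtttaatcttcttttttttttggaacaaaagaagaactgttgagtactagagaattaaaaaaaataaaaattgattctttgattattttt
ZFP8 (chr2:17507093-17507342, plus strand): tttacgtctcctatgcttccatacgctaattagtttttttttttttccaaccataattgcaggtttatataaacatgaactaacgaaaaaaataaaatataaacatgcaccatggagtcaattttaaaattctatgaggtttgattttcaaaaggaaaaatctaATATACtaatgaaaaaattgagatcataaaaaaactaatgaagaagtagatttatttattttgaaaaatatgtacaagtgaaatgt
AT4G38840 (chr4:18125560-18125809, minus strand): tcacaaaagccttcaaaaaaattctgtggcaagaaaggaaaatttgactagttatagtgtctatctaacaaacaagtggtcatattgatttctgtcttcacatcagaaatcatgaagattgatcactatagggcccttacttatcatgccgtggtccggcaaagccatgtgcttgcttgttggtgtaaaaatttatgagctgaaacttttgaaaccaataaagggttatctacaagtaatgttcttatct
AT5G61590 held 1 match of the KANADI letters, starting at base -56 from the gene start, AT2G38180 held 2 at -151 and -97, and ZFP8 held 1 at -86. The window of AT4G38840 held neither set of letters, and none of the 4 held AATNATT.

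Over the 90 members with an annotated start, 19 windows (21.1%) held AATNATT, against 32.1% of the 12761 windows of all genes passing the level filter. The KANADI letters were in 75 windows (83.3%), against 76.04% of all. The auxin response letters TGTCTC were in 15 windows (16.7%), against 10.3%, and the G-box CACGTG in 4 (4.44%), against 7.31%. These shares are descriptions of fixed letters in a short window, searched on both strands. The GNATAA and GNATAT matches are so frequent that most windows of any kind hold one.

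The d values did not use the 30 min libraries, which were therefore used to compare GR-REV with GR-KAN1. The level filter took every group, and 1 member, AT1G12100, reached it only through GR-REV at 30 min, with 5.32 FPKM there against at most 4.71 FPKM in the groups behind d; it was not called. All 76 steadily measured members and the 16 others entered one limma fit over 19406 genes, with calls made where the p adjusted by Benjamini-Hochberg was under 0.05. GR-REV was higher for 30 of the 92 members and lower for 0, where 2.74% of all genes tested were called higher and 0.618% lower. Here and below, the genes tested had to reach a group mean of 1 FPKM and the members 5 FPKM. The shares over all genes thus include lower genes than the members. The members' median log2 difference was 0.73, against -0.0045 over all genes, and 75 of 92 were positive. None of the 16 members with values at or near 0 was called, so the 30 lay among the other 76. This comparison is of levels in the 2 lines, so it contains any difference between them before dexamethasone, which was not tested. At 0 min, a time the rule used, the median difference between GR-REV and GR-KAN1 was -0.41 over the 92 members, with 25 positive, and -0.002 over the 30, with 15 positive, both given as a description. GR-REV had 2 libraries at this time, and without replicate 1 the count was 16 and without replicate 2 it was 17. Fitted on these 5 libraries alone, 18 members were called.

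**Figure D1:**
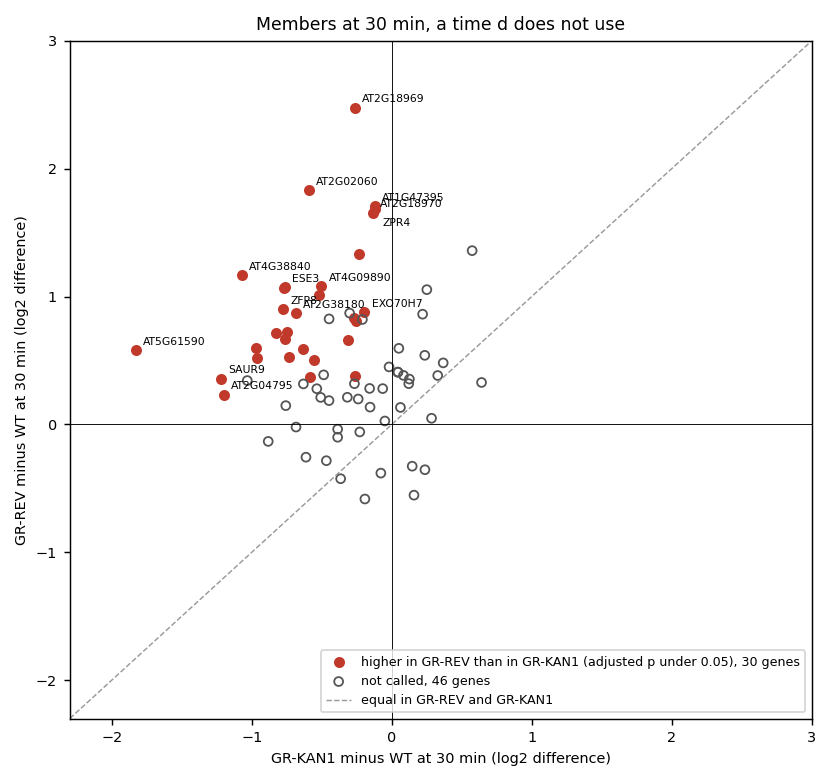
Log2 difference of GR-REV minus WT (vertical) against GR-KAN1 minus WT (horizontal) at 30 min for the 76 members with no value at or near 0 in the libraries used by the rule. Filled points are the 30 members called higher in GR-REV than in GR-KAN1 and open points the other 46; all 30 lie above the dashed line of equal levels, and names mark those also called against WT.

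Of the 30, 11 were also called higher in GR-REV than in WT at 30 min and 6 were called lower in GR-KAN1 than in WT, with 3 genes in both sets and 16 in neither. Against WT, GR-REV was higher for 11 members and lower for 0, where 2.13% of all genes were called higher and 0.191% lower, and the members' median was 0.40. GR-KAN1 was lower than WT for 6 members and higher for 0, where 0.289% of all genes were called lower and 0.186% higher, and the median was -0.27. WT replicates 4 to 6 carry later library codes than all other libraries. Within the earlier code series, 9 members were called higher in GR-REV than in WT and 2 lower in GR-KAN1 than in WT. Without GR-REV replicate 1 or 2 the count for GR-REV against WT was 3 or 5, and the count for GR-KAN1 against WT was 2 without its replicate 2 or without WT replicate 2, and 3 without its replicate 1 or 3. Fitted on the groups compared alone, 1 member was called for GR-REV against WT and 0 for GR-KAN1 against WT.

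Of the 13 transcription regulators, 9 were called for GR-REV against GR-KAN1, 5 for GR-REV against WT, 2 for GR-KAN1 against WT and 1 in GR-STM. Signalling genes had 5, 0, 0 and 3 of 12 called, enzymes 4, 1, 1 and 3 of 12, and SAUR genes 2, 1, 2 and 0 of 7 in the same comparisons. Over all genes tested, 2.74% were called higher and 0.618% lower for GR-REV against GR-KAN1, and 2.13% and 0.191% for GR-REV against WT. For GR-KAN1 against WT the shares were 0.186% and 0.289%, and in GR-STM 0.861% and 0.649%. Shares over all genes of a product group were not computed, and the groups were not tested against each other.

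ZPR4 (AT2G36307) encodes a LITTLE ZIPPER, a small leucine zipper protein known to bind HD-ZIP III proteins and block their binding to DNA. It stood at 6.96 and 6.36 FPKM in GR-REV at 30 min, against 1.33, 1.42 and 1.97 FPKM in GR-KAN1 and 1.19 to 3.36 FPKM (median 2.10) in the 6 WT libraries. The GR-REV libraries lay above every library of the other lines at that time. The log2 difference from GR-KAN1 was 1.80 ± 0.31 (SE, adjusted p = 5.33e-05 in limma) and that from WT was 1.68 ± 0.29 (adjusted p = 4.88e-05), while GR-KAN1 and WT differed by -0.12 ± 0.25 (adjusted p = 0.985). At 60 min GR-REV held 28.0 to 54.2 FPKM and GR-KAN1 0.868 to 1.96 FPKM. At 120 min GR-REV held 30.1 to 40.6 FPKM and GR-KAN1 1.09 to 2.39 FPKM, and at 0 min the ranges were 1.79 to 2.80 FPKM in GR-REV and 1.91 to 3.21 FPKM in GR-KAN1. ZPR4 met the GR-KAN1 threshold narrowly, with a d of -0.53. All 4 LITTLE ZIPPER genes were called higher in GR-REV than in GR-KAN1 and than in WT at 30 min, and ZPR4 is the only one among the members.

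AT2G18969 (chr2:8229000-8229574) is annotated as a transcription regulator, and AT2G18970, of unknown product, overlaps it by 459 bases on the other strand. AT2G18969 stood at 8.97 and 8.18 FPKM in GR-REV at 30 min, against 0.703 to 1.16 FPKM in GR-KAN1 and 0 to 4.18 FPKM in WT. Every GR-REV library exceeded every GR-KAN1 and WT library. The log2 difference from GR-KAN1 was 2.74 ± 0.40 (adjusted p = 1.91e-06 in limma) and that from WT was 2.48 ± 0.37 (adjusted p = 4.06e-06). AT2G18970 held 3.83 and 6.89 FPKM in GR-REV, against 0.711, 1.27 and 1.53 FPKM in GR-KAN1, a log2 difference of 1.79 ± 0.34 (adjusted p = 3.22e-04 in limma, 0.0856 without GR-REV replicate 2). The sources used here do not say whether counting used strand, and reads of the overlap cannot be assigned to one of the pair.

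AT2G02060 encodes a homeodomain-like protein. It stood at 9.43 and 7.53 FPKM in GR-REV at 30 min, against 1.82, 0.882 and 0.936 FPKM in GR-KAN1 and 1.15 to 2.83 FPKM in WT. The GR-REV libraries lay above all of GR-KAN1 and WT, while 1 of 3 GR-AS2 libraries held 8.95 FPKM. Its difference was on the GR-REV side, at 1.83 ± 0.35 from WT (adjusted p = 3.38e-04 in limma, 0.0527 without GR-REV replicate 1), with -0.59 ± 0.31 between GR-KAN1 and WT (adjusted p = 0.779).

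AT5G61590, the ethylene response factor DEWAX, known as a repressor of leaf wax synthesis, showed the opposite balance. It held 60.2 and 75.6 FPKM in GR-REV at 30 min, against 10.4, 10.6 and 16.8 FPKM in GR-KAN1 and 24.8 to 70.1 FPKM (median 36.0) in WT. The GR-KAN1 libraries lay below all others. The GR-REV range overlapped that of WT only through WT replicate 2, at 70.1 FPKM, against 24.8 to 36.7 FPKM in the other 5. The log2 difference between GR-REV and GR-KAN1 was 2.41 ± 0.28 (adjusted p = 1.55e-08 in limma). GR-KAN1 differed from WT by -1.83 ± 0.23 (adjusted p = 6.61e-07), and GR-REV from WT by 0.58 ± 0.26 (adjusted p = 0.432). The call of GR-KAN1 against WT was lost when only the groups compared were fitted (adjusted p = 0.243 in limma). In GR-KAN1 the gene stayed between 7.12 and 17.1 FPKM at 60 and 120 min, against 31.2 to 40.3 FPKM at 0 min.

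ZFP8, a C2H2 zinc finger protein known to promote trichome formation, was among the 3 members called against WT in both lines. It held 47.7 and 52.0 FPKM in GR-REV at 30 min, against 17.1, 14.2 and 14.4 FPKM in GR-KAN1. WT held 23.5, 32.5 and 25.5 FPKM in replicates 1 to 3 and 50.5, 46.9 and 33.2 FPKM in replicates 4 to 6. GR-REV thus lay above WT of its own code series and overlapped the range of replicates 4 to 6. The fit, with code series as a term, gave 1.68 ± 0.22 between GR-REV and GR-KAN1 (adjusted p = 1.48e-07 in limma), 0.90 ± 0.20 between GR-REV and WT (adjusted p = 0.00316) and -0.78 ± 0.18 between GR-KAN1 and WT (adjusted p = 0.0181). The call of GR-REV against WT was lost without GR-REV replicate 1 or 2 (adjusted p = 0.0536 and 0.137) and without the code series term (adjusted p = 0.367). The call of GR-KAN1 against WT was lost in 3 of 9 fits that left out 1 library (adjusted p up to 0.175) and within the earlier code series (adjusted p = 0.0797).

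**Figure D2:**
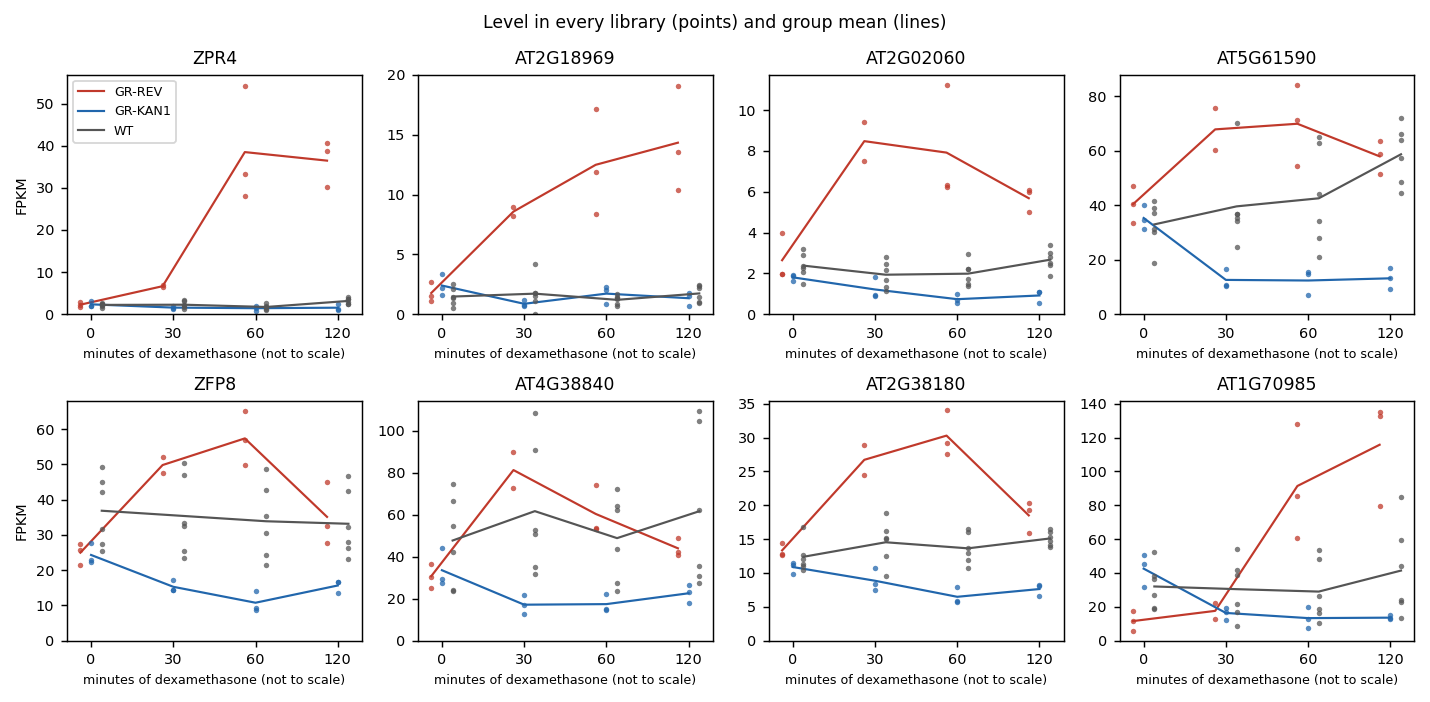
FPKM of 8 members in every library (points) of GR-REV, GR-KAN1 and WT at 0, 30, 60 and 120 min of dexamethasone, with lines through group means; each panel has its own scale from 0. GR-REV lies above GR-KAN1 in all 8 panels at 60 and 120 min, which the selection favours. It does so in 7 of the 8 already at 30 min, while AT1G70985 overlaps there. Members were named partly for a small adjusted p at 30 min, so the panels do not show how often members separate then.

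AT4G38840 (SAUR14) belongs to the SMALL AUXIN UPREGULATED RNA family, whose members are induced early by auxin and promote cell expansion. It held 72.6 and 89.8 FPKM in GR-REV at 30 min, against 16.9, 12.7 and 21.6 FPKM in GR-KAN1 and 31.9 to 108.3 FPKM in WT. GR-KAN1 lay below all WT libraries, and GR-REV lay within the WT range, above WT replicates 1 to 3. The log2 difference between GR-REV and GR-KAN1 was 2.24 ± 0.31 (adjusted p = 7.01e-07 in limma). Against WT it was 1.17 ± 0.29 for GR-REV (adjusted p = 0.0101) and -1.07 ± 0.25 for GR-KAN1 (adjusted p = 0.0267). The call of GR-REV against WT was lost without GR-REV replicate 1 or 2 (adjusted p = 0.0712 and 0.336), within the earlier code series (adjusted p = 0.0907) and without the code series term (adjusted p = 0.586). The call of GR-KAN1 against WT was lost in 3 of 9 fits that left out 1 library (adjusted p up to 0.452).

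The 7 SAUR members were SAUR9, SAUR14, SAUR15, SAUR28, SAUR63, SAUR68 and AT1G29430. SAUR14 and SAUR9 were called higher in GR-REV than in GR-KAN1 at 30 min and lower in GR-KAN1 than in WT. SAUR9 held 3.05 and 2.76 FPKM in GR-REV, against 0.691, 0.591 and 0.641 FPKM in GR-KAN1 and 0.999 to 2.34 FPKM in WT. Its call of GR-KAN1 against WT was lost without GR-KAN1 replicate 2 (adjusted p = 0.0684), within the earlier code series (adjusted p = 0.119) and without the code series term (adjusted p = 0.139). The other 5 had log2 differences between GR-REV and GR-KAN1 of -0.47 to 0.30 at 30 min, and none was called. SAUR14 and SAUR15 are neighbours on chromosome 4, 497 bases apart on opposite strands. SAUR63 and AT1G29430 lie 1088 bases apart on chromosome 1, and SAUR68 lies 17314 bases from SAUR63. Genes of this family are similar in sequence, and the sources used here do not say how multiply mapped reads were divided among them.

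AT2G38180, an SGNH-type esterase, held 28.9 and 24.5 FPKM in GR-REV at 30 min, against 8.30, 10.8 and 7.42 FPKM in GR-KAN1 and 9.48 to 18.8 FPKM in WT. The 2 GR-REV libraries lay above all others, and GR-KAN1 overlapped WT at its lower end. The log2 differences were 1.55 ± 0.20 between GR-REV and GR-KAN1 (adjusted p = 1.98e-07 in limma), 0.87 ± 0.19 between GR-REV and WT (adjusted p = 0.00224) and -0.68 ± 0.17 between GR-KAN1 and WT (adjusted p = 0.0333). The call of GR-REV against WT was lost without GR-REV replicate 1 (adjusted p = 0.19), and that of GR-KAN1 against WT in 6 of the 9 fits that left out 1 library (adjusted p up to 0.299) and within the earlier code series (adjusted p = 0.208).

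ESE3, an ethylene response factor induced by ethylene and salt, held 17.4 and 16.2 FPKM in GR-REV, against 4.55, 4.71 and 3.82 FPKM in GR-KAN1, a log2 difference of 1.84 ± 0.33 (adjusted p = 1.45e-04 in limma). AT2G28140, with a domain of unknown function, held 5.54 and 5.32 FPKM in GR-REV, against 1.83, 1.79 and 1.35 FPKM in GR-KAN1. The uncharacterised AT2G04795 was higher in GR-REV than in GR-KAN1 by 1.43 ± 0.34 (adjusted p = 0.00541) and lower in GR-KAN1 than in WT, at -1.201 ± 0.28 (adjusted p = 0.0191). Its first call was lost without GR-REV replicate 1. Its second was lost in 5 of 9 fits that left out 1 library (adjusted p up to 0.206) and within the earlier code series. HB22, a zinc finger homeodomain protein, LBD38, a LOB-domain protein that responds to nitrate, and WOX4, a homeobox protein that maintains the vascular cambium, were also called higher in GR-REV than in GR-KAN1, at 1.07, 0.95 and 1.07. BHLH100 and BHLH101, a pair of iron-deficiency regulators, had differences of 1.17 and 0.80 and were not called. Neither were CIL, at 0.53, and the basic helix-loop-helix gene AT2G43140, at 0.05.

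Among signalling and hormone genes, DWF4, the hydroxylase that limits brassinosteroid synthesis, held 4.43 and 4.97 FPKM in GR-REV at 30 min, against 2.6 to 3.30 FPKM in GR-KAN1. The groups did not overlap, and the log2 difference was 0.64 ± 0.17 (adjusted p = 0.0171 in limma). BRH1, a RING finger gene responsive to brassinosteroid, differed by 1.56 ± 0.43 (adjusted p = 0.0225), and PKS4, a phytochrome kinase substrate that acts in phototropism, by 1.54 ± 0.37 (adjusted p = 0.00659). SPX1, a phosphate sensor, was called higher in GR-REV at 1.48. Of the 5 cell wall members, EXGT-A3, a xyloglucan endotransglucosylase, was called, at 1.43 ± 0.28 (adjusted p = 5.34e-04). The peptide transporter OPT6 was the 1 transporter of 7 called, at 1.101, and of 12 enzymes 4 were called.

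AT1G70985, a hydroxyproline-rich cell wall glycoprotein with the widest d difference among the 76 (3.19 in GR-REV and -1.66 in GR-KAN1), was not yet apart at 30 min. It held 12.6 and 22.5 FPKM in GR-REV, against 17.1, 19.5 and 12.4 FPKM in GR-KAN1 and 8.33 to 54.4 FPKM in WT, and the groups overlapped (log2 difference 0.07 ± 0.47, adjusted p = 0.986 in limma). It then held 60.6 to 128.1 FPKM at 60 min and 79.5 to 135.3 FPKM at 120 min in GR-REV, against 7.28 to 19.7 FPKM and 12.6 to 15.02 FPKM in GR-KAN1. At 0 min GR-REV held 5.57 to 17.4 FPKM and GR-KAN1 31.4 to 50.9 FPKM, so the lines stood in the opposite order before dexamethasone.

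Across the members, levels at 30 min exceeded those at 0 min in GR-REV for 74 of 92, with a median log2 change of 0.56, and in GR-KAN1 for 4 of 92, with a median of -0.59. These changes use the 0 min libraries of the rule and are given without a test. The 60 and 120 min libraries chose the members through their average, so their difference is not free of the selection and says nothing about stability. No member was called between these times in either line in limma. In GR-REV 13 of the 92 members had an unadjusted p under 0.05, as did 1163 of the 19406 genes tested. The members' median change was -0.12, and 0.0721% of all genes were called higher and 0.0721% lower. In GR-KAN1 9 members had an unadjusted p under 0.05, as did 1044 of the 19406 genes. The members' median was 0.065, and 0.0103% of all genes were called higher and 0.00515% lower.

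**Figure D3:**
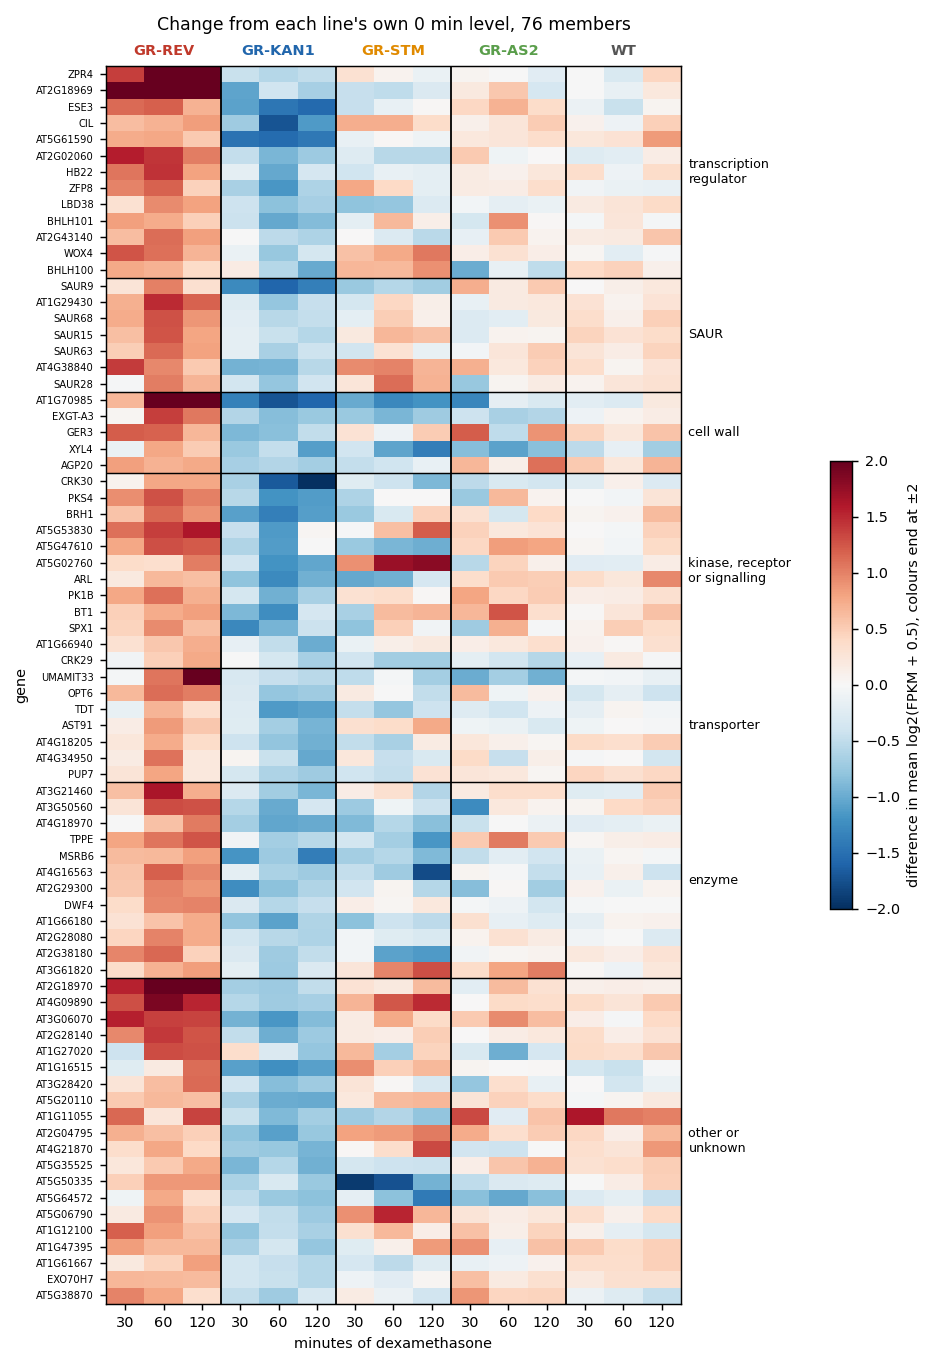
Difference in mean log2(FPKM + 0.5) from each line's own 0 min level at 30, 60 and 120 min, for the 76 members with no value at or near 0 in the libraries used by the rule, grouped by product. Red is above and blue below the 0 min level, and colours end at ±2. Averaged over 60 and 120 min, GR-REV lies above and GR-KAN1 below its 0 min level through the selection, while GR-STM holds both colours.

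The remaining lines entered the rule only through the level filter, and no member depended on them to pass it. In GR-STM, whose fusion carries the meristem homeodomain protein SHOOT MERISTEMLESS, d beyond that of WT was called higher for 5 members and lower for 4, where 0.861% of all genes were called higher and 0.649% lower, and the members' median was -0.0062. In GR-AS2, which carries the leaf polarity factor AS2, 0 members were called, where 0.0103% of all genes were called higher and 0% lower. The members' median was 0.064, and 12 members had an unadjusted p under 0.05, as did 1692 of the 19406 genes tested. In WT itself 0 members were called, where 0.0824% of all genes were called higher and 0.0103% lower. The members' median was 0.015, and 7 members had an unadjusted p under 0.05, as did 1333 of the 19406 genes. Within the earlier code series the GR-STM count was 3 in place of 9. Without GR-STM 0 min replicate 2 it was 3, and without replicate 3 it was 5.

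The members higher in GR-STM were AT5G02760 (APD7, a type 2C protein phosphatase), AT4G09890, the aspartyl protease gene AT3G61820, AT5G06790 and WOX4. AT5G02760 held 65.3, 65.9 and 70.2 FPKM at 60 min and 66.0, 75.3 and 73.1 FPKM at 120 min in GR-STM, against 22.1, 19.6 and 18.6 FPKM at 0 min. WT held 13.2 to 26.9 FPKM at 60 min and 14.9 to 34.4 FPKM at 120 min, below every GR-STM library of those times. The change beyond WT was 1.80 ± 0.30 on the log2 scale (adjusted p = 7.14e-05 in limma). AT3G61820 changed by 1.07 ± 0.21 beyond WT (adjusted p = 9.95e-04). In GR-REV the d of these 5 genes, part of the selection, was 0.68 to 1.70.

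The members lower in GR-STM were AT2G38180, the trehalose phosphate phosphatase gene TPPE, the receptor-like kinase gene CRK29 and ARL, an ARGOS-like gene that promotes cell expansion. AT2G38180 held 5.64, 5.63 and 5.13 FPKM at 60 min and 5.48, 3.97 and 6.34 FPKM at 120 min in GR-STM, against 12.4, 11.8 and 11.7 FPKM at 0 min. WT held 10.7 to 16.4 FPKM at 60 min and 13.8 to 16.5 FPKM at 120 min, with no overlap. The change beyond WT was -1.198 ± 0.20 (adjusted p = 7.88e-05 in limma), and TPPE changed by -1.07 ± 0.25 (adjusted p = 0.0123). The TPPE call was lost within the earlier code series (adjusted p = 0.0814) and without GR-STM 0 min replicate 2 or 3 (adjusted p = 0.0585 and 0.103). Of the 10 genes of a touch and rapid stress list, 6 also fell in GR-STM beyond WT, with a list median of -1.67 against 0.0015 over all genes, and their part in the falls of these members was not tested.

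**Figure D4:**
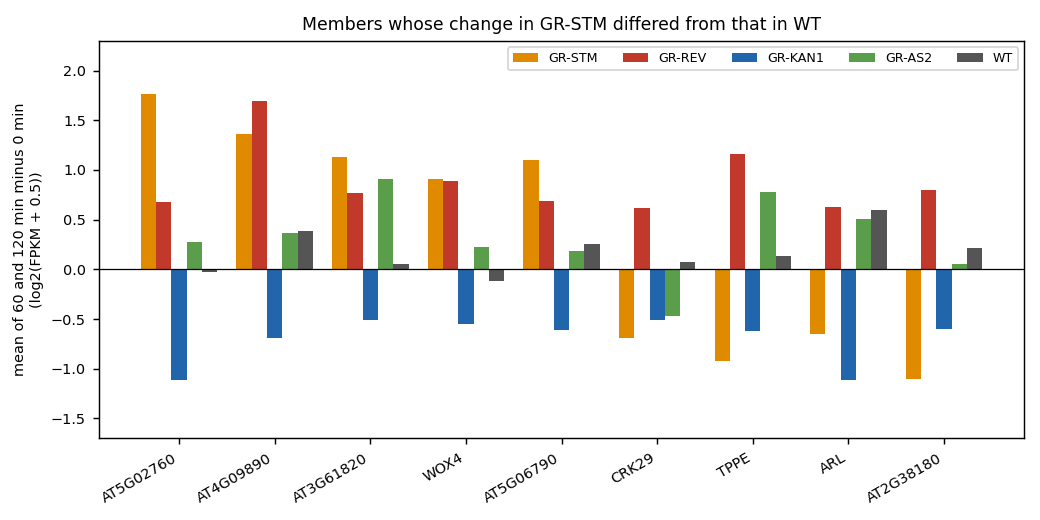
Mean log2(FPKM + 0.5) over 60 and 120 min minus 0 min in each line, for the 9 members whose change in GR-STM differed from that in WT. Bars stand for single values of the group means. In GR-STM 5 genes rise and 4 fall, while all 9 rise in GR-REV and fall in GR-KAN1 through the selection.

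Polarity and auxin genes outside the members were read from lists of known genes at 30 min. Of the other class III genes none was called between GR-REV and GR-KAN1 besides REV itself, of 6 KANADI and ARF partner genes only KAN1 itself was called, and 0 of 4 YABBY and 0 of 15 auxin transport genes were. Of 5 auxin synthesis genes tested, YUC5, a flavin monooxygenase of auxin synthesis, was called higher in GR-REV than in GR-KAN1. Among 6 clade A protein phosphatases, which act in abscisic acid signalling, ABI1 and ABI2 were called in opposite directions, and PIL1, a shade-induced gene, was lower in GR-REV than in GR-KAN1.

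Over all libraries the median FPKM was 4.25 to 4.92 and 332 to 1136 genes were listed at 0, and depth is unknown because FPKM keep no read totals. A first principal component of the residuals, taken after each group's own mean was subtracted, took up 14.8% of the variance. On it all WT replicates 1 to 3 scored 8.38 to 58.3 and all WT replicates 4 to 6, of the later code series, -45.0 to -9.38. The 30 min libraries of GR-REV and GR-KAN1 lay between -13.6 and 13.6. The subtraction centres each group on 0, so these scores do not place the 2 lines between the code series. Genes under 150 bases held 33.1% and 0.199% of the summed FPKM in the 2 GR-REV libraries of 30 min, against 39.6%, 4.46% and 35.1% in the 3 of GR-KAN1. In the libraries of 60 and 120 min, which entered d, the lines differed more. There these genes held 0.17% to 11.7% in GR-REV and 10.4% to 95.8% in GR-KAN1. The part of this difference in d was not tested. The touch and rapid stress list had a median d of 0.048 in GR-REV and -0.71 in GR-KAN1. Its 10 genes summed to 292.9 to 325.0 FPKM in GR-REV and 172.7 to 373.2 FPKM in GR-KAN1 at 30 min, and 0 were called between them (median 0.31). The 3 photosynthetic markers summed to 48504 to 80993 FPKM in GR-REV and 12240 to 45147 FPKM in GR-KAN1 at 30 min, with RBCS1A listed at or near 0 in 58 of 71 libraries and CAB1 in 8. CAB1 is itself a member, so this sum is not independent of the selection. The 3 root markers summed to 2079 to 2889 FPKM in GR-REV and 1112 to 2285 FPKM in GR-KAN1. The 2 seed markers summed to 4.22 to 12.37 FPKM in GR-REV and 0.10 to 0.27 FPKM in GR-KAN1 at 30 min. They were already apart at 0 min, with at least 4.40 FPKM in GR-REV and at most 0.37 FPKM in GR-KAN1. Guard cell and phloem markers were lower in GR-REV at 30 min, without overlap. At 0 min the phloem markers were already narrowly apart, at 33.37 to 43.249 FPKM in GR-REV and 43.252 to 65.07 FPKM in GR-KAN1. The guard cell markers overlapped at 0 min. Shoot meristem, epidermis, xylem and flower markers overlapped. The part of these markers in the members' differences was not tested. In whole seedlings, fewer cells of a type and less RNA per cell cannot be told apart.

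Membership itself depended on single libraries. Of the 92, 33 were kept in all 18 repeats of the rule that each left out 1 library, and 31 of these had no value at or near 0. Of these 31 genes, 17 were called higher in GR-REV than in GR-KAN1 at 30 min, where 2.74% of all genes tested were. XYL4, a beta-xylosidase gene, and the RNA gene AT5G64572 overlap by 3351 bases on opposite strands and had d of 0.64 and 0.55 in GR-REV and -0.79 and -0.78 in GR-KAN1, so their values may share reads. The purine permease gene PUP7 and AT4G18205, annotated as a nucleotide-sugar transporter, lie 153 bases apart, with 1 annotated gene between their starts. Both were members and neither was called at 30 min. Members also lay near each other, with other genes between them, at BHLH101 and PKS4 (11252 bases), AT5G20110 and SPX1 (8862 bases) and TDT and AT5G47610 (10026 bases). In all, 56 of the 92 members were called in none of the 8 comparisons. The same share over all genes tested was not computed, so this count has no reference.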

How the data were processed

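RNA of whole seedlings was sequenced in 71 libraries. Per the submitters' processing notes reads were handled with TopHat2 2.0.10 and Cufflinks on TAIR10, and the authors deposited 1 table of FPKM per gene, called geometric normalized; the sources used here give neither the roles and order of these steps nor any use of strand. FPKM keep no read totals, so depth is unknown. From these values log2(FPKM + 0.5) was tested with limma 3.58.1 in R 4.3.3 over 19406 genes with a highest group mean of at least 1 FPKM: 20 group means and the library code series as a term, eBayes with trend, two-sided, Benjamini-Hochberg within each of 8 comparisons. Log2 differences on this scale understate changes of low genes. The labels call replicates biological.

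The members and gene lists were chosen with earlier results of these data known, so d and the 0 min levels of GR-REV and GR-KAN1, which the rule used, carry no test; the 60 and 120 min libraries, which it averaged, were compared with each other only. Members named are the 12 with the widest difference in d, the 10 with the smallest adjusted p for GR-REV against GR-KAN1, up to 4 for each other comparison, those in a gene list, those nearest a threshold and chromosome neighbours; other members named as examples of a product group were chosen after their values were seen. Names, positions and sequences come from RefSeq's TAIR10.1, matched by locus for 90 members; the deposited table has no coordinates. The alternatives tried were another pseudocount, no filter, quantile normalization, no code series term, smaller fits, a replicate block and leaving out each library. The procedure was tested on simulated data. 1 upstream sequence is not reported here.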

Additional observations from a re-analysis of the deposited data

Results flagged for a closer look

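In 3 of 60 groups of 6 WT libraries tested over 15 genes, 1 library stood apart from the others by Dixon's criterion, which chance meets in about 1 of 20 groups. AT5G61590 was 70.1 FPKM in WT replicate 2 at 30 min, against 24.8 to 36.7 FPKM in the other 5. AT2G38180 was 16.8 FPKM in WT replicate 2 at 0 min, against 10.4 to 12.7 FPKM. AT5G02760 was 33.9 FPKM in WT replicate 2 at 30 min, against 10.9 to 18.4 FPKM. TPPE moved in opposite directions in 2 lines, with a d of -0.92 in GR-STM and 0.78 in GR-AS2, and every library moved in its line's direction; this difference was not tested.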

How the results depend on the processing

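Counts of members called are given here over all alternatives that moved them by more than 1.5 times. Fitted on only the groups compared, 18 members were called for GR-REV against GR-KAN1, 1 for GR-REV against WT, 0 for GR-KAN1 against WT and 16 for GR-STM. Without the code series term 7 were called for GR-REV against WT and 5 for GR-STM. Within the earlier code series, with the replicate number as a block or without it, 2 were called for GR-KAN1 against WT and 3 for GR-STM; the fit without the block was chosen after seeing the data. Same-numbered libraries did not deviate together (median correlation 0.0027 over 551 pairs), so the number was not taken as a pairing. Quantile normalization called 1 member between 120 and 60 min in GR-KAN1. Leaving out 1 library gave 16 to 29 members for GR-REV against GR-KAN1, 3 to 14 for GR-REV against WT, 2 to 7 for GR-KAN1 against WT, 3 to 10 for GR-STM, 0 to 1 for GR-AS2, 0 to 0 for WT, 0 to 0 between 120 and 60 min in GR-REV and 0 to 1 in GR-KAN1. Smaller fits hold fewer libraries; for the other settings the cause was not tested. Of 30 calls of single genes, 16 held in every fit without 1 library and 15 in every other alternative, and none reversed. The rule itself gave 76 genes with a pseudocount of 1, 105 on 60 min alone, 86 on 120 min alone (58 shared with the 92) and 82 to 110 without 1 library. With the d of WT subtracted from that of each line it gave 83 genes, of which 61 were among the 92. With group medians in place of means it gave 80, of which 59 were among the 92. The number of libraries, 2 for GR-REV at 30 min, limits the precision, and FPKM give no counting error.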
